A study of Arabidopsis thaliana with 18 samples.

Results

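The genes described here are SAPX (AT4G08390), CCS (AT1G12520) and AT2G21640 of Arabidopsis thaliana, grouped as genes of the oxidative stress response. Each was read from 1 probe set annotated to that gene alone, and they are 3 of the 13356 genes that had such a probe set among the 22746 probe sets tested. They were chosen with their signals in these arrays already known. Their levels and differences are therefore given as descriptions with standard errors and intervals, without p-values. Root RNA was hybridised to 18 Affymetrix ATH1 arrays of 1 colour, 3 biological replicates in each of 6 groups. The groups were the Col-0 wild type, a line in the Col-0 strain that overexpressed the cucumber gene CsUBC13 (CsUBC13-OE) and the mutant ubc13A, also in the Col-0 strain and labelled ubc13-/-, each grown with and without Fe. Seedlings were 10 days old when they were moved to ES medium with FeEDTA or to the same medium with none added, and roots were collected 3 days later. UBC13 is a ubiquitin-conjugating enzyme that builds lysine-63-linked chains. The promoter behind CsUBC13, the number of lines and the kind of mutation in ubc13A are not given in the sources used here.

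Superoxide dismutases turn superoxide into hydrogen peroxide, and peroxidases and catalases then remove the peroxide. SAPX encodes the stromal ascorbate peroxidase, a haem enzyme that reduces hydrogen peroxide with ascorbate in plastids. CCS encodes the chaperone that loads copper into the copper/zinc superoxide dismutases, which need no iron. AT2G21640 carries no gene symbol in the annotation used here and was placed in the lists of general oxidative stress markers and mitochondrial stress genes. Iron is a cofactor of several of the enzymes that remove active oxygen, and free iron itself helps to form hydroxyl radicals.

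The tissue label was checked against 16 root marker genes and 15 genes of green tissue. Of the root list 4 were measured, and their summed signal lay between 14500 and 24456.7 on all 18 arrays. PYK10, a beta-glucosidase abundant in roots, ranged from 12890.6 to 22635.8 and made up most of that sum. None of the 4 was at 0, and the lowest value was 34.2, for XTH26. Of the green tissue list 5 were measured, none was at 0, and their summed signal ran from 1965.4 to 4315.7. Apart from PYK10, means of the root markers in Col-0 with Fe were 206.2 for XTH26, 710.2 for EXPA7 and 991.5 for EXPA18. Those of green tissue genes were 1263 for LHCB4.1, 1173 for RCA, 871.4 for PSAE-1, 265.4 for PRK and 194.9 for SBPASE. The higher root sum thus rests on PYK10. Correlations between arrays ran from 0.958 to 0.991 on the log2 scale. Arrays carry no read depth, and 3 per group limit the precision.

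SAPX was high in every root grown with Fe and low in every root grown without. In Col-0 the signal with Fe was 2462.1, 2434.3 and 2413.9 in replicates 1, 2 and 3, and without Fe 755.4, 533.8 and 391.8. In CsUBC13-OE it was 2441.5, 2558.1 and 2538.9 with Fe and 834.7, 688.2 and 368 without. In ubc13A it was 1923.5, 2467.9 and 1777.8 with Fe and 704.4, 866.3 and 920.7 without. The lowest array with Fe and the highest without were both of ubc13A, and the 2 supplies did not overlap in any genotype.

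Means of SAPX were 2437 ± 24.2 with Fe and 560.3 ± 183 without in Col-0 (SD, n = 3). They were 2513 ± 62.5 and 630.3 ± 239 in CsUBC13-OE, and 2056 ± 364 and 830.5 ± 113 in ubc13A. The spread was uneven: it came to 0.993% of the mean in Col-0 with Fe and 32.7% without, to 2.49% and 37.9% in CsUBC13-OE, and to 17.7% and 13.5% in ubc13A. The fit pools 1 variance per probe set over the 6 groups, so its standard error is wide for the tight groups and narrow for the loose ones. Without Fe, replicate 1 held the highest and replicate 3 the lowest SAPX signal in Col-0 and in CsUBC13-OE. Same-numbered arrays of these 2 groups also deviated together over all probe sets, with correlations of 0.297, 0.201 and 0.107. In order of mean level the groups were CsUBC13-OE, Col-0 and ubc13A with Fe, then ubc13A, CsUBC13-OE and Col-0 without Fe. The values of neighbours in that order overlapped except between ubc13A with Fe and ubc13A without.

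CCS went the other way. In Col-0 its signal was 1143.5, 1031.2 and 1014.3 with Fe and 2100, 1547.6 and 1640.4 without. In CsUBC13-OE it was 1330.2, 1108.1 and 941.8 with Fe and 1811.9, 1745.4 and 1631.1 without. In ubc13A it was 1039.4, 1046.9 and 1198.9 with Fe and 1620.1, 1659.4 and 1641.6 without. Each of the 9 arrays without Fe lay above each of the 9 with Fe, the nearest values being 1547.6 and 1330.2. Means with Fe were 1063 ± 70.2 in Col-0, 1127 ± 195 in CsUBC13-OE and 1095 ± 90 in ubc13A (SD, n = 3), and those without Fe were 1763 ± 296, 1729 ± 91.4 and 1640 ± 19.7. Within either supply all neighbouring groups overlapped.

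AT2G21640 was higher without Fe as well, and it was the member whose level also differed by genotype. In Col-0 the signal was 216.2, 249.2 and 274.2 with Fe and 771, 742.6 and 769.9 without. In CsUBC13-OE it was 232.9, 309.4 and 250.4 with Fe and 844.5, 566.1 and 935.9 without. In ubc13A it was 139, 204.9 and 155.1 with Fe and 292, 290.5 and 387.5 without. The ubc13A arrays lay below all Col-0 and CsUBC13-OE arrays of the same supply. Means in Col-0 were 246.5 ± 29.1 and 761.2 ± 16.1, in CsUBC13-OE 264.2 ± 40.1 and 782.2 ± 193, and in ubc13A 166.3 ± 34.4 and 323.3 ± 55.6, with and without Fe (SD, n = 3). The mean of ubc13A without Fe was next above that of CsUBC13-OE with Fe, and the values of these 2 groups overlapped.

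**Figure D1:**
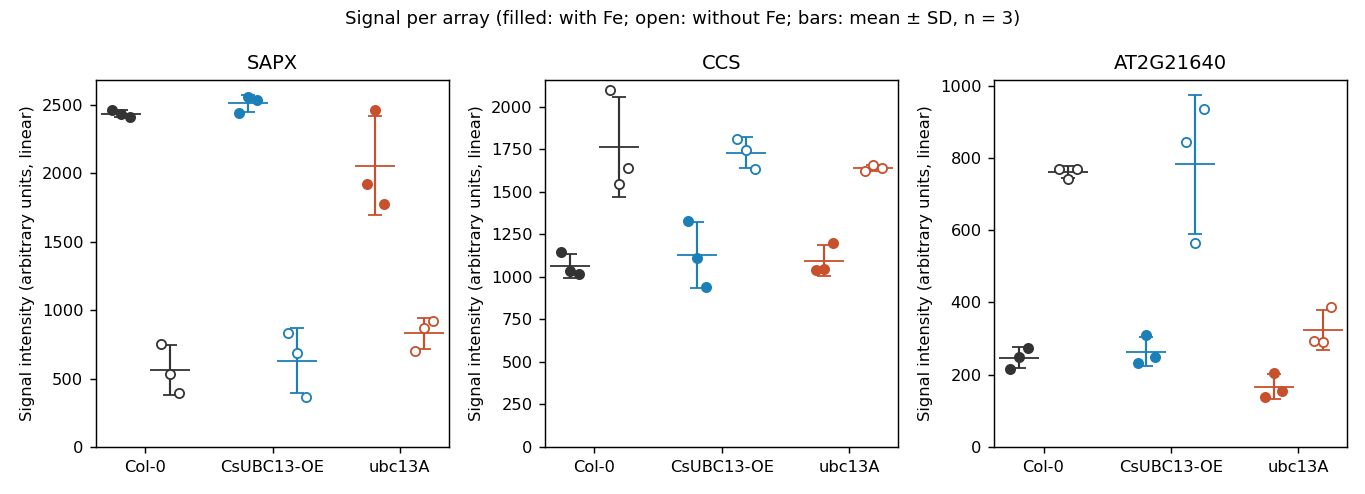
Signal intensity on a linear scale for SAPX, CCS and AT2G21640 on each of the 18 arrays, grouped by genotype, with filled points for roots with Fe, open points for roots without Fe, and bars for the mean ± SD of 3 arrays. SAPX is at least 1777.8 with Fe and at most 920.7 without, CCS is at least 1547.6 without Fe and at most 1330.2 with it, and AT2G21640 without Fe stays at or below 387.5 in ubc13A against at least 566.1 in the other lines.

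The Fe response was taken as the difference of log2(signal + 16) between roots without and with Fe, in a limma fit over all probe sets. SAPX fell by 2.14 in Col-0 (SE 0.26, 95% interval from -2.68 to -1.59), a 4.40-fold change. It fell by 2.04 in CsUBC13-OE (SE 0.26, interval from -2.59 to -1.50), 4.13-fold. In ubc13A it fell by 1.29 (SE 0.26, interval from -1.83 to -0.74), 2.44-fold. Ranked from the most lowered of 22746 probe sets, it stood at 13 in Col-0, 20 in CsUBC13-OE and 53 in ubc13A. The estimate was lowest in size in the mutant.

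CCS rose by 0.71 in Col-0 (SE 0.14, interval from 0.42 to 0.998), by 0.62 in CsUBC13-OE (interval from 0.34 to 0.91) and by 0.58 in ubc13A (interval from 0.29 to 0.87). These are changes of 1.64-fold, 1.54-fold and 1.49-fold. AT2G21640 rose by 1.57 in Col-0 (SE 0.19, interval from 1.17 to 1.97), by 1.49 in CsUBC13-OE (interval from 1.09 to 1.89) and by 0.90 in ubc13A (interval from 0.50 to 1.30), or 2.97-fold, 2.81-fold and 1.87-fold. From the most raised probe set, AT2G21640 ranked 106, 131 and 344 in Col-0, CsUBC13-OE and ubc13A, and CCS 554, 716 and 993. On the log2 scale CCS moved least of the members in each line.

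All 3 members were called in each Fe response at an adjusted p under 0.05, where 4.26% of probe sets were called in Col-0, 4.33% in CsUBC13-OE and 3.72% in ubc13A. Groups with and without Fe did not overlap for any member, and this held for 22% of probe sets in Col-0, 19.8% in CsUBC13-OE and 21.8% in ubc13A. Because the members were picked from these contrasts, nothing is read from these counts. The calls of SAPX held under every alternative tried. Those of CCS ended when only the 6 arrays of a genotype were fitted, in Col-0 also with the replicate number as a block, where the whole count in Col-0 was 405 instead of 970. They also ended without CsUBC13-OE replicate 3 with Fe or replicate 1 without Fe, and for 5 of the 6 arrays of ubc13A when each was removed. The AT2G21640 call in ubc13A ended when its 6 arrays were fitted alone, and without replicate 1 with Fe or replicate 3 without Fe.

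Green tissue genes moved with Fe supply too. Their summed signal ran from 3454 to 4315.7 with Fe and from 2551.1 to 2865.3 without in Col-0. In CsUBC13-OE it ran from 3994.8 to 4194.5 and from 1995.2 to 2760.8, and in ubc13A from 2367.5 to 3302.9 and from 1965.4 to 2669.9. Of the 5 genes, SBPASE fell in Col-0 (-0.66, limma adjusted p = 0.0267), SBPASE, RCA and LHCB4.1 fell in CsUBC13-OE, and none passed the test in ubc13A. None of the 4 measured root markers was called in any line, and their median changes were -0.19 in Col-0, -0.34 in CsUBC13-OE and -0.30 in ubc13A. With limma, 1, 2 and 1 of them had an unadjusted p under 0.05, as had 3, 4 and 1 of the green tissue genes. XTH26 stood at -1.12, -0.95 and -0.54 in these lines, and EXPA7 at 0.02, 0.13 and 0.44. The median summed root signal also fell without Fe, from 17882.1 to 15531.1 in Col-0. It went from 18981.7 to 16444.2 in CsUBC13-OE and from 21366.7 to 18535.3 in ubc13A. With Fe, PYK10 was higher in ubc13A than in Col-0 (0.37), and XTH26, EXPA7 and EXPA18 were lower (-0.14, -0.50 and -0.46), none of them called. SAPX encodes a plastid enzyme, and the part of the green tissue shift in its fall was not tested. In bulk roots, fewer cells of a type and less RNA per cell cannot be told apart.

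Whether the genotypes responded differently was described by the difference between 2 Fe responses. Against Col-0, the response of SAPX in ubc13A was weaker by 0.85 on the log2 scale (SE 0.36, interval from 0.08 to 1.62). The rise of AT2G21640 was smaller by a log2 difference of -0.67 (SE 0.26, interval from -1.24 to -0.11). For CCS the difference was -0.13 (SE 0.19, interval from -0.54 to 0.28). Neither of the first 2 members was called: limma called 0 of the 22746 probe sets (0%) for this difference, while 1254 stood at an unadjusted p under 0.05. With single arrays removed the SAPX difference ran from 0.63 to 1.09 and that of AT2G21640 from -0.80 to -0.52.

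In CsUBC13-OE the differences from the Col-0 response were 0.09 for SAPX (SE 0.36), -0.09 for CCS (SE 0.19) and -0.08 for AT2G21640 (SE 0.26). Their intervals ran from -0.68 to 0.87, from -0.49 to 0.32 and from -0.65 to 0.48. With 3 arrays per group, differences within these ranges were compatible with the data. The intervals are not limits of detection, and the size of difference needed for a call was not tested. None of the members was called, against 0.0044% of probe sets. Both differences use the same 6 Col-0 arrays.

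**Figure D2:**
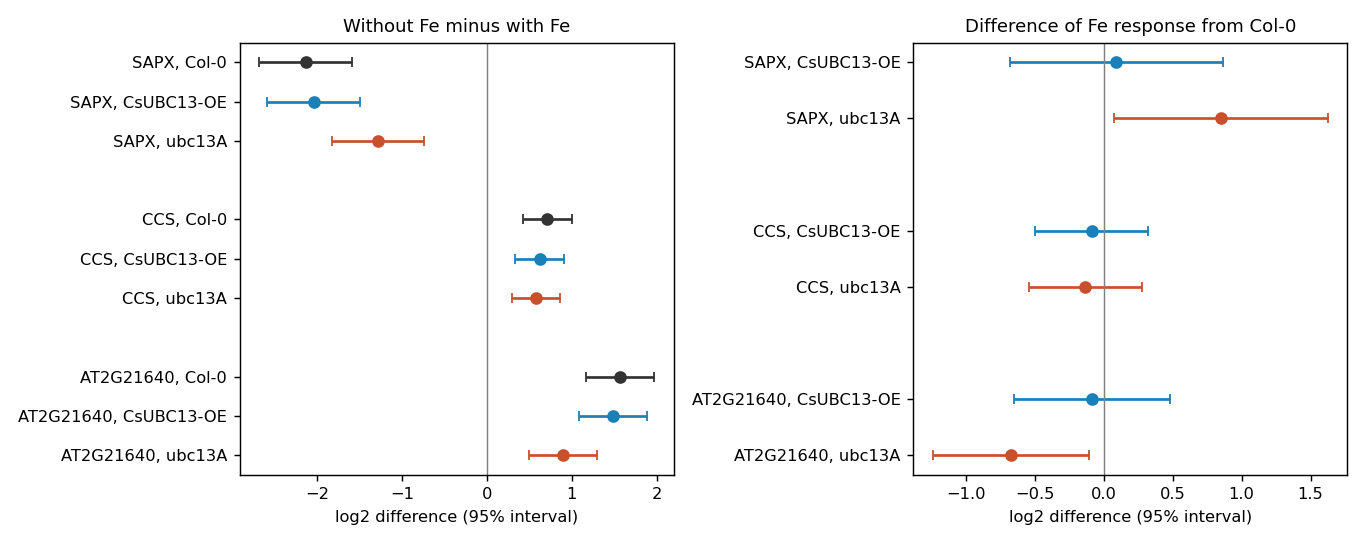
The left panel shows the log2 change from roots with Fe to roots without Fe for each member and genotype, and the right panel the difference of that change from Col-0, each with its 95% interval from the limma fit. The Fe responses of SAPX and AT2G21640 lie nearer to 0 in ubc13A than in the other lines, and the 3 points of CCS lie between 0.58 and 0.71.

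The ubc13A samples are numbered apart from those of the other lines, and whether their arrays were run separately is not given. In the differences below, genotype and a separate run could not be told apart. Of the members, the mutant differed from Col-0 at a fixed Fe supply mainly in AT2G21640. Without Fe its signal was lower in ubc13A by a log2 difference of -1.21 (SE 0.19, interval from -1.61 to -0.81), a 2.31-fold difference that ranked 37 from the most lowered. It was among the 0.0484% of probe sets called in this comparison, 11 in all. With 1 of the 6 arrays removed the call ended in 5 cases and stood only without ubc13A replicate 3 without Fe. It also ended with a pseudocount of 1 or with only the 6 arrays compared. The value itself stayed between -1.34 and -1.10 under all of these settings. With Fe the difference was -0.54 (SE 0.19, interval from -0.94 to -0.14), or 1.45-fold, and was not among the 0.0132% of probe sets called. The groups did not overlap at either supply, as was the case for 15.9% of probe sets with Fe and 17.7% without.

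SAPX without Fe was higher in ubc13A than in Col-0 by 0.59 (SE 0.26, interval from 0.05 to 1.14), with the value of Col-0 replicate 1 inside the range of the mutant. Leaving out 1 array moved this difference between 0.37 without Col-0 replicate 3 and 0.83 without Col-0 replicate 1. With Fe it was -0.26 (interval from -0.80 to 0.29). CCS differed between ubc13A and Col-0 by 0.04 with Fe and -0.09 without (SE 0.14 each). Neither gene was called, and for both the groups overlapped.

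In CsUBC13-OE against Col-0 none of the 3 members was called at either supply, where 0.0132% of probe sets were. SAPX differed by 0.04 with Fe and 0.14 without (SE 0.26 each), CCS by 0.07 and -0.02 (SE 0.14), and AT2G21640 by 0.09 and 0.01 (SE 0.19). The intervals of SAPX ran from -0.50 to 0.59 with Fe and from -0.41 to 0.68 without, as wide as each other and wider than those of the other members. The groups overlapped for all members, while they did not for 6.59% of probe sets with Fe and 8.9% without.

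The control probe sets of a GAPDH transcript gave a 3' to 5' signal ratio, a sign of RNA integrity, of 1.18 to 1.54 in ubc13A with Fe and of 0.794 to 1.12 on all other arrays. The ratio of the actin control probe sets was 15.0 to 20.3 in ubc13A with Fe, inside the range of 9.19 to 26.9 on the other arrays. It lay far above the GAPDH ratio on every array, and whether this reflects RNA integrity was not tested. The group ubc13A with Fe also enters the Fe response of ubc13A and the difference of that response from Col-0. The part of the GAPDH ratio in these values and in the ubc13A differences with Fe was not tested.

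**Figure D3:**
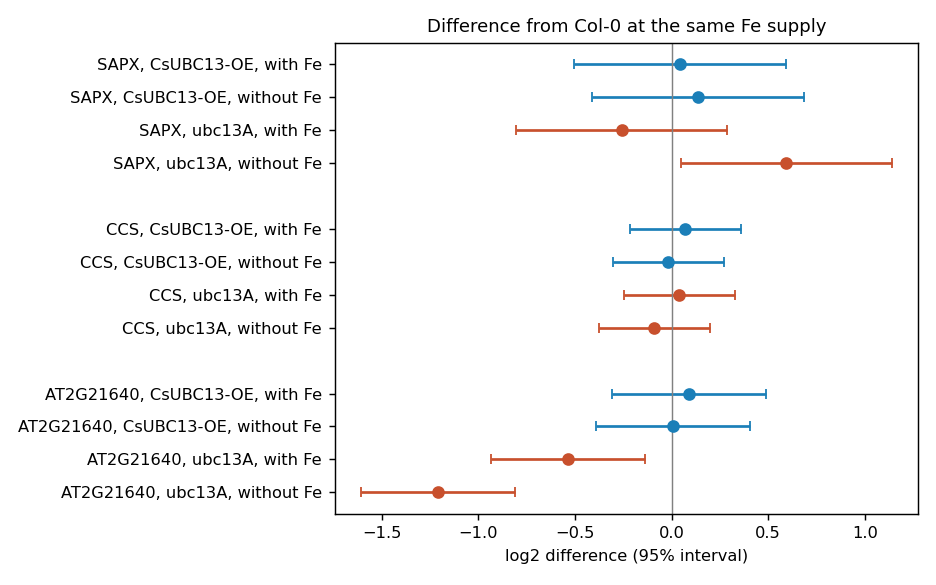
Log2 difference of CsUBC13-OE and of ubc13A from Col-0 at the same Fe supply for each member, with 95% intervals. The 2 lowest points are AT2G21640 in ubc13A, at -1.21 without and -0.54 with Fe, while the 6 points of CsUBC13-OE lie between -0.02 and 0.14.

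Other genes of the same systems were read from lists of antioxidant enzymes, copper delivery, mitochondrial stress and general oxidative stress markers. The lists were chosen with earlier results of these data known, so their counts and adjusted p-values are descriptions and not independent support. Besides the members, 24 of their genes were measured. Without Fe, 3 of them rose and 1 fell in Col-0, 3 rose and 0 fell in CsUBC13-OE, and 1 rose and 0 fell in ubc13A. Over all probe sets, 4.26%, 4.33% and 3.72% were called in these lines. An unadjusted limma p under 0.05 was held by 3507, 3397 and 3797 of 22746 probe sets. The median changes of the 24 genes were 0.05, 0.05 and 0.08, where the median over all probe sets was -0.04 in each line. Leaving out 1 array took the number rising to between 0 and 2 in Col-0, 0 and 3 in CsUBC13-OE, and 1 and 3 in ubc13A. The count of 0 rising in Col-0 came without replicate 2 with Fe or replicate 3 without Fe, and in CsUBC13-OE without replicate 1 or 3 without Fe.

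The genes that rose all belonged to the mitochondrial stress list, in which AT2G21640 stands and of which 7 other genes were measured. In Col-0 3 of the 7 rose, with a list median of 1.09, and in CsUBC13-OE 3 rose, with a median of 0.98. In ubc13A 1 rose, and the median was 0.25. For the difference of Fe response between ubc13A and Col-0, the median of the 7 was -0.35, and AT5G51440 went the other way at 0.69. With limma 0 of the 7 were called for that difference, as were 0 of the 22746 probe sets. An unadjusted p under 0.05 was held by 0 of the 7 and by 1254 of all probe sets. The counts per line are therefore not read as a difference between lines. AT5G51440 rose in all 3 lines, by 1.12 in Col-0 (SE 0.26, limma adjusted p = 0.0218), 1.10 in CsUBC13-OE (adjusted p = 0.024) and 1.80 in ubc13A (adjusted p = 0.000594). NDB4, which encodes an alternative NAD(P)H dehydrogenase, rose by 1.43 in Col-0 (SE 0.36, adjusted p = 0.034) and by 1.46 in CsUBC13-OE (adjusted p = 0.0298). In ubc13A NDB4 stood at 1.08 without passing the test (adjusted p = 0.131).

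AT5G09570 rose by 1.09 in Col-0 (SE 0.23, adjusted p = 0.00999) and by 0.98 in CsUBC13-OE (adjusted p = 0.0208), and stood at 0.71 in ubc13A (adjusted p = 0.113). Most of these calls were close to the threshold. With the replicate number as a block the adjusted p of NDB4 in Col-0 was 0.0516 over all 18 arrays, and that of AT5G51440 in Col-0 was 0.0824 over its 6 arrays. Without 1 array the NDB4 call held in 1 of 6 fits in Col-0 and 2 of 6 in CsUBC13-OE, that of AT5G51440 in 2 of 6, 1 of 6 and, in ubc13A, 6 of 6, and that of AT5G09570 in 4 of 6 and 3 of 6. Between ubc13A and Col-0 the same 7 genes had a median of -0.28 with Fe and -0.56 without, beside 0.03 and 0.04 over all probe sets. None of them was called at either supply, where 0.0132% and 0.0484% of probe sets were. With limma, 2 with Fe and 4 without had an unadjusted p under 0.05, as had 2238 and 2524 of the 22746 probe sets.

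Of 4 other general oxidative stress markers, 1 was called in Col-0 and none in the other lines with limma, where 0 in CsUBC13-OE and 2 in ubc13A had an unadjusted p under 0.05. AT1G19020 fell by 0.91 in Col-0 (SE 0.20, limma adjusted p = 0.0132), a call that ended with only the 6 Col-0 arrays, with or without the block (adjusted p = 0.131 and 0.0832). It also ended without Col-0 replicate 2 with Fe, or replicate 1 or 2 without Fe. It stood at -0.28 in CsUBC13-OE and -0.52 in ubc13A, and AT1G05340 at 0.24, 0.30 and 0.70 in Col-0, CsUBC13-OE and ubc13A, none of these past the test.

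Few of the genes that act next to SAPX and CCS were read, and those read showed no called change in any Fe response with limma. Of 8 listed ascorbate peroxidase genes 2 were measured, SAPX included. Of 9 genes in the list of superoxide dismutases and their copper chaperone 2 were measured, CCS included. TAPX, the thylakoid ascorbate peroxidase and the one further member of its family measured, had mean signals between 28.3 and 70.4, and stood at -0.999 in Col-0 (SE 0.44), 0.05 in CsUBC13-OE and -0.13 in ubc13A. Its change in Col-0 had an unadjusted limma p under 0.05. AT3G56350, listed among the superoxide dismutases, had mean signals from 11.0 to 41.7 and stood at 0.59, 0.05 and 1.16 (SE 0.39). The last of these, in ubc13A, also had an unadjusted limma p under 0.05. The other superoxide dismutase genes of that list, CSD1, CSD2 and CSD3 among them, were not analysed here. In the list of ascorbate recycling and synthesis 0 of 5 genes were called in any line, while 0 in Col-0, 1 in CsUBC13-OE and 2 in ubc13A had an unadjusted p under 0.05. VTC4, which encodes an enzyme of ascorbate synthesis, stood at -0.29, -0.36 and -0.40, and ATMDAR2, a monodehydroascorbate reductase gene, at -0.12, 0.05 and 0.37.

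Of 3 genes listed among the catalases, glutathione peroxidases and peroxiredoxins, 0 were called, and 2 in Col-0, 1 in CsUBC13-OE and 0 in ubc13A had an unadjusted p under 0.05. Of these genes, AT3G52960 stood at -0.37 in Col-0 (adjusted p = 0.0731), -0.34 in CsUBC13-OE and -0.22 in ubc13A. That gene passed the test in Col-0 without the dimmest 40% of probe sets (adjusted p = 0.0325). AT3G11630 of the same list stood at -0.34, -0.18 and -0.02. In the copper list, which holds CCS, 0 of 3 other genes were called, and 0, 0 and 1 had an unadjusted p under 0.05 in Col-0, CsUBC13-OE and ubc13A. AT1G53030 stood at 0.29, 0.23 and 0.59, and ARPN, the plantacyanin gene, at 0.39 in Col-0, 0.44 in CsUBC13-OE and -0.43 in ubc13A. Genes of the iron storage list were not analysed here.

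**Figure D4:**
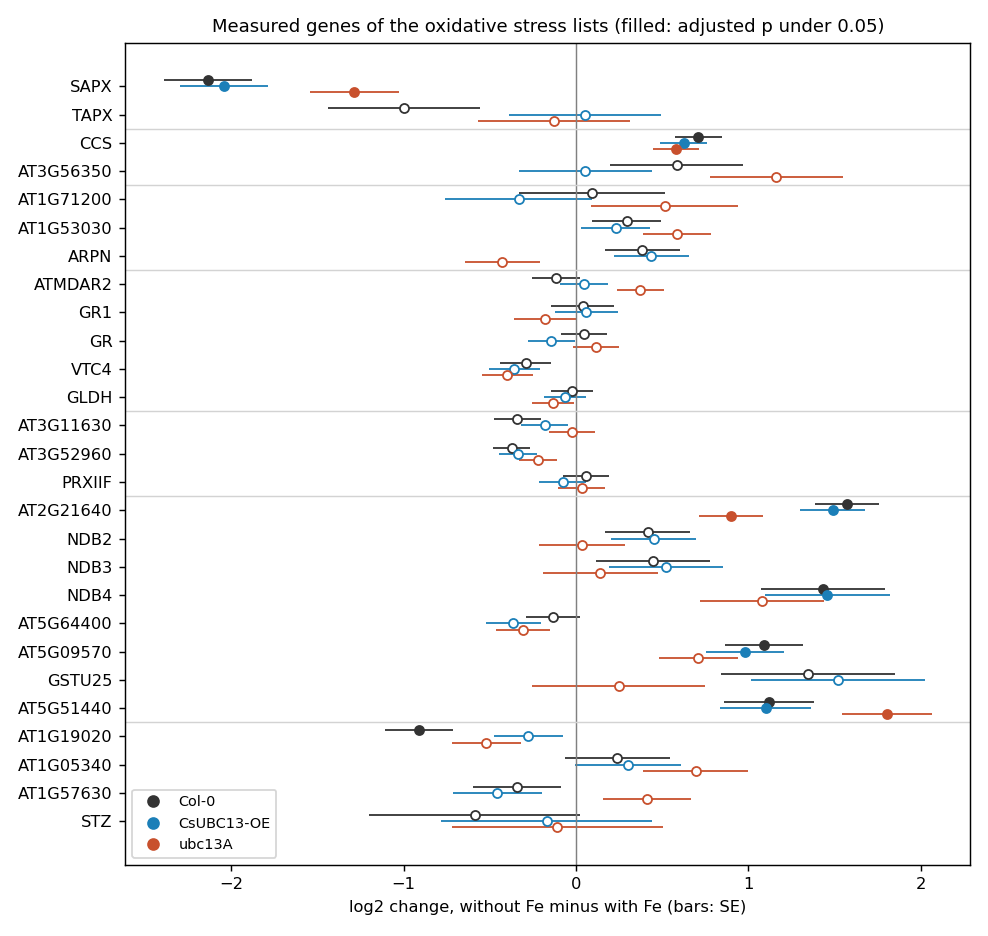
Log2 change from roots with Fe to roots without Fe, with its SE, for the 3 members and 24 other measured genes of the lists, coloured by genotype and filled where limma's adjusted p was under 0.05. Filled points other than those of the members are AT5G51440, NDB4 and AT5G09570 above 0 and AT1G19020 below 0.

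The genes whose signal followed each member most closely were sought by Pearson correlation over the 18 arrays, among 7698 probe sets with 1 gene and a mean signal of at least 100. The arrays share their Fe supply, which sets most of each value, so the correlation of deviations from the 6 group means is given as well. SAPX was followed by AT5G40510 (r = 0.969, and 0.588 for deviations), AT5G49760 (0.968 and 0.627), SIR (0.962 and 0.538) and AT5G12980 (0.959 and 0.784). SIR encodes the plastid sulfite reductase, an enzyme with siroheme and an iron-sulfur cluster. Its mean signal went from 3724 to 1626 in Col-0, from 3876 to 1605 in CsUBC13-OE and from 2993 to 1976 in ubc13A. As with SAPX, its lowest mean with Fe and its highest without were those of the mutant.

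CCS was followed by AT1G51830 (r = 0.961, and 0.842 for deviations), SUFE2 (0.960 and 0.761), AT3G27880 (0.957 and 0.734) and PGL34 (0.949 and 0.578). SUFE2 encodes an activator of the plastid cysteine desulfurase for iron-sulfur cluster assembly, and PGL34 a protein of plastoglobules. The mean signal of SUFE2 went from 173.5 to 446.3 in Col-0, from 168.2 to 419.7 in CsUBC13-OE and from 151 to 353.8 in ubc13A. In the order of mean level without Fe, Col-0, CsUBC13-OE and ubc13A followed each other for SUFE2 and AT3G27880 as they did for CCS. For AT1G51830 and PGL34 the mean of CsUBC13-OE was the highest, at 672.2 and 632.4 against 625.2 and 596.5 in Col-0. The neighbouring CCS groups without Fe overlapped, so their order is not read as a difference.

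AT2G21640 was followed by AT4G19200 (r = 0.949, and 0.156 for deviations), AT5G37740 (0.942 and 0.468), NDB4 (0.936 and 0.627) and AT5G45350 (0.929 and 0.159). All 4 had lower means in ubc13A than in Col-0 and CsUBC13-OE at either supply. NDB4 stands in the mitochondrial stress list with AT2G21640, and its mean signal was 79.5 with Fe and 246.2 without in Col-0, 77.8 and 248.2 in CsUBC13-OE, and 43.8 and 94.1 in ubc13A. Its log2 difference from Col-0 in ubc13A was -1.23 without Fe (SE 0.36, limma adjusted p = 0.209) and -0.87 with Fe (adjusted p = 0.45), and neither passed the test. These likenesses are descriptions chosen by the pattern itself.

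**Figure D5:**
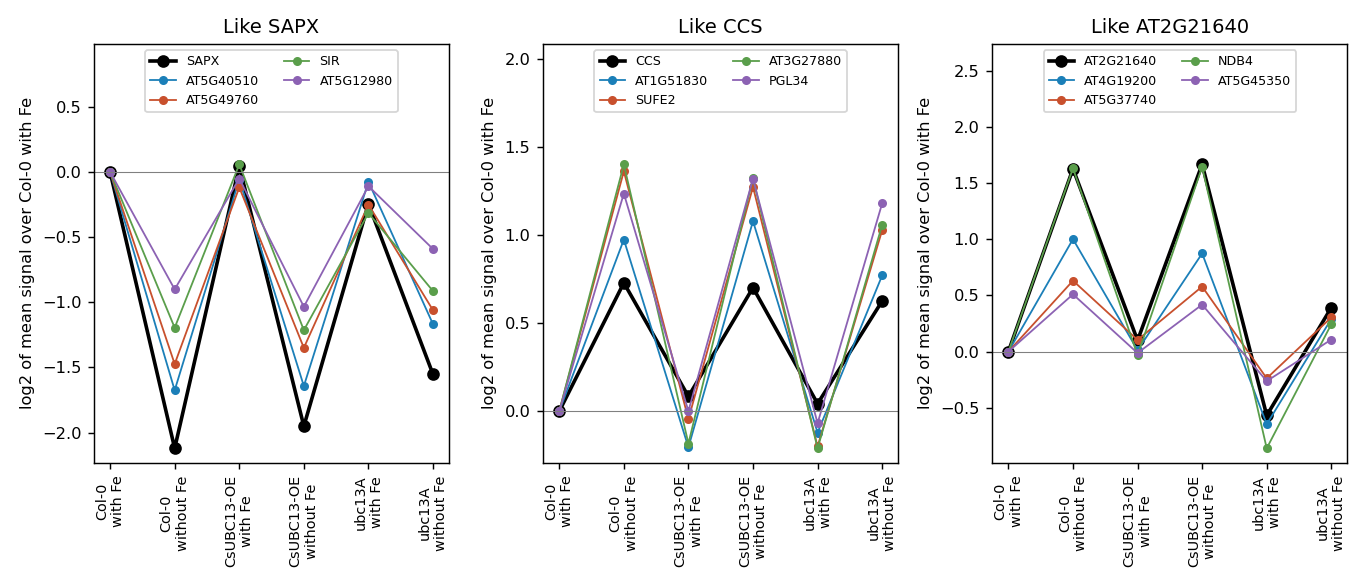
Log2 of each group's mean signal over that of Col-0 with Fe, for each member in black and the 4 genes with the highest correlation to it in colour. The genes like SAPX lie lowest in Col-0 and CsUBC13-OE without Fe, those like CCS are high in all 3 groups without Fe, and those like AT2G21640 lie lower in ubc13A than in the other lines at both supplies.

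Deviations of the members from their group means were only weakly related. For deviations from the 6 group means over 18 arrays the correlation was 0.35 between SAPX and CCS, -0.03 between SAPX and AT2G21640, and -0.18 between CCS and AT2G21640. Within the 9 arrays with Fe, which include the low ubc13A arrays, SAPX and AT2G21640 had a correlation of 0.87, and within the 9 without Fe one of -0.58. The 3 ubc13A arrays hold the lowest AT2G21640 values at each supply.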

How the data were processed

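The authors deposited linear intensity values, with 1 value for each probe set on an array. For the step from scanned images to these values, software and settings are not given in the sources used. Trimmed means of the deposited intensities (2% off each end) lay between 500.041 and 500.045 and medians between 189.9 and 211.3, as after scaling each array to a target. Of 22810 probe sets, 64 controls were left out. The platform annotation named 1 gene for 13513 of the rest, several for 503 and none for 8730, and 13436 were matched to RefSeq (TAIR10.1) by Entrez number. The arrays name no build, so no coordinates are given.

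With limma 3.58.1 (R 4.3.3), 6 group means of log2(signal + 16) were estimated from the 18 arrays. A probe set was called at a Benjamini-Hochberg adjusted p under 0.05 over 22746 probe sets. Other steps used Python 3.11.15, pandas 2.3.3 and matplotlib 3.10.9. The fit was tested on simulated data. The members and gene lists were chosen with earlier results of these data known. A gene with several probe sets was read from the brightest. The rule named all measured ascorbate peroxidases and superoxide dismutases, and of other lists up to 6 called genes, or the 2 with the largest mean change where fewer than 2 were called. The main fit used no replicate pairing. A block by replicate number over all 18 arrays, ubc13A included, was tried as an alternative. In fits of 6 arrays, replicate numbers were taken to pair arrays only where every same-numbered pair of deviations correlated above 0.1. This held for the Col-0 arrays of the 2 supplies (0.261, 0.112 and 0.153) and, among roots without Fe, for Col-0 with CsUBC13-OE (0.297, 0.201 and 0.107). It also held between Col-0 grown with Fe and CsUBC13-OE grown without (0.215, 0.107 and 0.116), which are not compared. It came from the data, not the labels.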

Additional observations from a re-analysis of the deposited data

How the results depend on the processing

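In the 222 comparisons of a member's value with an alternative other than leaving out 1 array, 221 moved by less than the replicate SD and 1 by more, the rise of AT2G21640 in Col-0 (1.41 with a pseudocount of 64). Counts moved more. Counts of probe sets called between ubc13A and Col-0, which were 3 with Fe and 11 without Fe, became 11 and 19 after quantile normalization and 10 and 17 after median centring. They became 38 and 131 without the dimmest 40% of probe sets, 36 and 106 with a variance trend and robust moderation, 6 and 7 with a pseudocount of 1, and 19 and 76 with one of 64. A replicate block over 18 arrays gave 6 and 50, and the arrays compared alone 0 and 0. The count for the difference of Fe response of CsUBC13-OE (1) became 0 without dim probe sets, with the trend, with either pseudocount, with the block and with its arrays alone; that of ubc13A (0) became 1 without dim probe sets and with the trend. Fitting only the arrays compared gave 595, 438 and 419 called probe sets for the Fe responses of Col-0, CsUBC13-OE and ubc13A (970, 984 and 847), and 0 for CsUBC13-OE with Fe (3). With the replicate block added to the 6 arrays, an alternative chosen after the data were seen, the Col-0 count was 405 and that of CsUBC13-OE without Fe (3) was 0. Other list genes lowered in Col-0 (1) became 2 without dim probe sets, with the trend and with a pseudocount of 64, and 0 with 6 arrays, blocked or not. Those raised became 2 in ubc13A (1) without dim probe sets and with the trend, and 1 in CsUBC13-OE (3) with its 6 arrays. The dim-probe filter tests fewer probe sets and the 6-array fits use fewer arrays; other causes were not tested.

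Leaving out 1 array, Fe responses ran from -2.28 to -1.71 for SAPX in CsUBC13-OE and from 0.54 to 0.65 for CCS in ubc13A. Differences of Fe response ran from -0.14 to 0.43 (SAPX) and -0.23 to 0.13 (AT2G21640) in CsUBC13-OE, and from 0.63 to 1.09 (SAPX) and -0.22 to 0.00032 (CCS) in ubc13A. Differences from Col-0 ran from -0.40 to -0.16 for SAPX in ubc13A with Fe. Without Fe they ran from -0.18 to 0.041 for CCS and -1.34 to -1.14 for AT2G21640 in ubc13A, and from -0.13 to 0.22 for AT2G21640 in CsUBC13-OE. Called probe sets ran from 2 to 7 (ubc13A with Fe), 2 to 10 (ubc13A without Fe) and 0 to 1 (difference of CsUBC13-OE). Other list genes raised ran from 0 to 2 in Col-0, 0 to 3 in CsUBC13-OE and 1 to 3 in ubc13A, and those lowered in Col-0 from 0 to 1.

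No called value of a member changed sign. Signs of uncalled member differences close to 0 did turn, among them AT2G21640 in CsUBC13-OE against Col-0 without Fe (0.0077, and -0.0064 after quantile normalization), and several of the ranges above span 0. Among other genes, all uncalled, AT3G11630 in ubc13A was 0.034 after median centring, AT3G56350 in CsUBC13-OE was -0.38 with a pseudocount of 1 and TAPX there -0.00039 with one of 64. Without 1 array AT1G05340 in Col-0 ran from -0.047 to 0.50, and in CsUBC13-OE TAPX ran from -0.35 to 0.47, AT3G56350 from -0.31 to 0.49 and ATMDAR2 from -0.0097 to 0.088, while AT3G11630 in ubc13A ran from -0.12 to 0.058.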
